A study of Mus musculus with 26 samples.

Results

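St3gal1, St3gal4, St3gal5 and St6galnac2, 4 mouse genes for sialyltransferases, were followed across 5 exocrine glands of male and female mice. The members were the probes whose gene symbol, or current symbol by Entrez identifier, was 1 of these 4 names, which gave 4 probes, 1 per gene, of the 10500 probes in the table. All 4 passed the filter on dim signal. The members were chosen by their measured intensities on these arrays, as genes seen in earlier results to differ between the sexes and the glands, so their values are given as a description, with standard errors and without tests.

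The study measured RNA of BALB/c mouse submandibular, sublingual, parotid, lacrimal and meibomian glands on 26 one-colour expression arrays. Each array held a separate pool of 10 glands from 5 animals of the same sex, with 3 pools of each sex for submandibular, lacrimal and meibomian tissue and 2 of each sex for sublingual and parotid tissue. BALB/c is an inbred laboratory strain, no treatment or genetic change was labelled, and the age of the animals is not given in the sources used here. Pools average over animals, so the spread between them is not that between single mice. Values are scaled intensities, whose median over all probes lay between 0.928 and 0.955 on every array. The brightness of a probe depends on its sequence as well as on the amount of RNA, so levels are compared within a probe and never between genes.

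Sialyltransferases sit in the Golgi membrane and move sialic acid from its activated form, CMP-sialic acid, to the ends of sugar chains on proteins and lipids. In salivary, tear and lid glands the negative charge of sialic acid contributes to the viscosity of mucins and offers or hides binding sites for lectins and microbes. Of the 4 genes, St3gal1 encodes the enzyme that caps the galactose of mucin-type O-glycans. St3gal4 encodes an enzyme that caps galactose at the ends of lactosamine chains, including those of N-glycans. St3gal5 encodes the enzyme that adds sialic acid to lactosylceramide and so makes the simplest ganglioside. St6galnac2 encodes an enzyme that adds sialic acid to the inner N-acetylgalactosamine of O-glycans.

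Promoter sequence was found for 2 of the 4 genes, St3gal5 and St3gal4. The 250 bases before each start are shown because these genes moved in opposite directions between the sexes of the submandibular gland. Capitals mark the GC box, GGGCGG or CCGCCC, the short motif bound by Sp transcription factors. The sequences are from RefSeq, build GRCm38.p6, 5′ to 3′ along the gene. That of St3gal5 is chr6:72097358-72097607 on the plus strand and that of St3gal4 is chr9:35116865-35117114 on the minus strand.
St3gal5: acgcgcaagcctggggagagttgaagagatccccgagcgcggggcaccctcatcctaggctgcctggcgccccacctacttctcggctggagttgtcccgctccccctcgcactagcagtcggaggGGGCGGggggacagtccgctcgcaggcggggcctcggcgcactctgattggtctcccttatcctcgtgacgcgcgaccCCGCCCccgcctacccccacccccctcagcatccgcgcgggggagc
St3gal4: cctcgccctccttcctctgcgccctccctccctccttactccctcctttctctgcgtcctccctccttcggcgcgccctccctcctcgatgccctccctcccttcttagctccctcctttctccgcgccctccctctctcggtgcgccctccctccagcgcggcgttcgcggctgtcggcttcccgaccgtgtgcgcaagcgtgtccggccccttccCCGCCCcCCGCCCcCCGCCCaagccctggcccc
Both stretches were rich in G and C, 71.6% for St3gal5 and 72.8% for St3gal4, beside a median of 52.4% over all 32851 windows of the table. The St3gal5 stretch held 2 GC boxes and the St3gal4 stretch held 3. A GC box was present in 35.7% of all windows of 300 bases, which reach from 250 before to 50 after the start. Neither 300-base window held the full androgen response element, AGAACA followed after any 3 bases by TGTTCT, which 3 windows of the table held. Neither held AGAACA or TGTTCT on its own, which 19.0% of windows did, nor the estrogen response element, GGTCA followed after any 3 bases by TGACC, which 23 windows did. Each motif was searched on both strands, and the short androgen motifs also count where they form part of the full element. The absence of these letters from a short window says nothing of sites elsewhere.

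The arrays fell into 2 sets that the labels do not name, found from the values as the main direction in which pools departed from their group means, which held 39.1% of that variance. The 10 arrays of set 1 were submandibular pools B, sublingual pools A, parotid pools A, lacrimal pools B and meibomian pools A of both sexes, and set 2 held the other 16 arrays. Each set held the same pools of both sexes, so differences between the sexes are also given within a set where the sets disagree. Missing spots divided the arrays in another way, into 4 lots whose arrays shared them (correlation of missing spots 0.384 to 0.874 within lots, at most 0.0396 between them), and 2 of the lots held all the meibomian arrays. Besides these, the same lots held only lacrimal pools B of both sexes. With the lot as a block the meibomian level is therefore tied to those lacrimal pools, and lot and gland can hardly be told apart. Correlations between pools of a group were 0.880 to 0.994 on the log2 scale, and the lowest involved male lacrimal pool B. Lacrimal pools stood apart on a list of 8 lacrimal genes, whose summed level was 1134 to 1765 in lacrimal pools and at most 942 elsewhere. Meibomian pools stood apart on 8 genes of a meibomian list, with sums of 577 to 761 in meibomian pools and at most 65.5 elsewhere. The short lists for parotid and sublingual cells, 2 and 3 measured genes, did not single out their glands by summed level: the sublingual list summed to 56.3 to 77.5 in sublingual pools and to 289 to 469 in lacrimal pools. Gene by gene, 2 of the 3 sublingual genes were called higher and 0 lower in the sublingual gland (5.9% and 5.26% of all probes), with a median log2 difference of 1.82. In the lacrimal gland 1 was called higher and 1 lower (11.6% and 8.58% of all probes), with a median of -0.79. The granular duct list was highest in the submandibular gland, at 373 to 530, and reached 375 in male parotid and 345 in male sublingual pools. In the sublingual gland 2 of its 5 tested genes were called higher in males, beside 0.0855% of all probes. In dissected tissue, fewer cells of a type and less RNA per cell cannot be told apart.

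**Figure D1:**
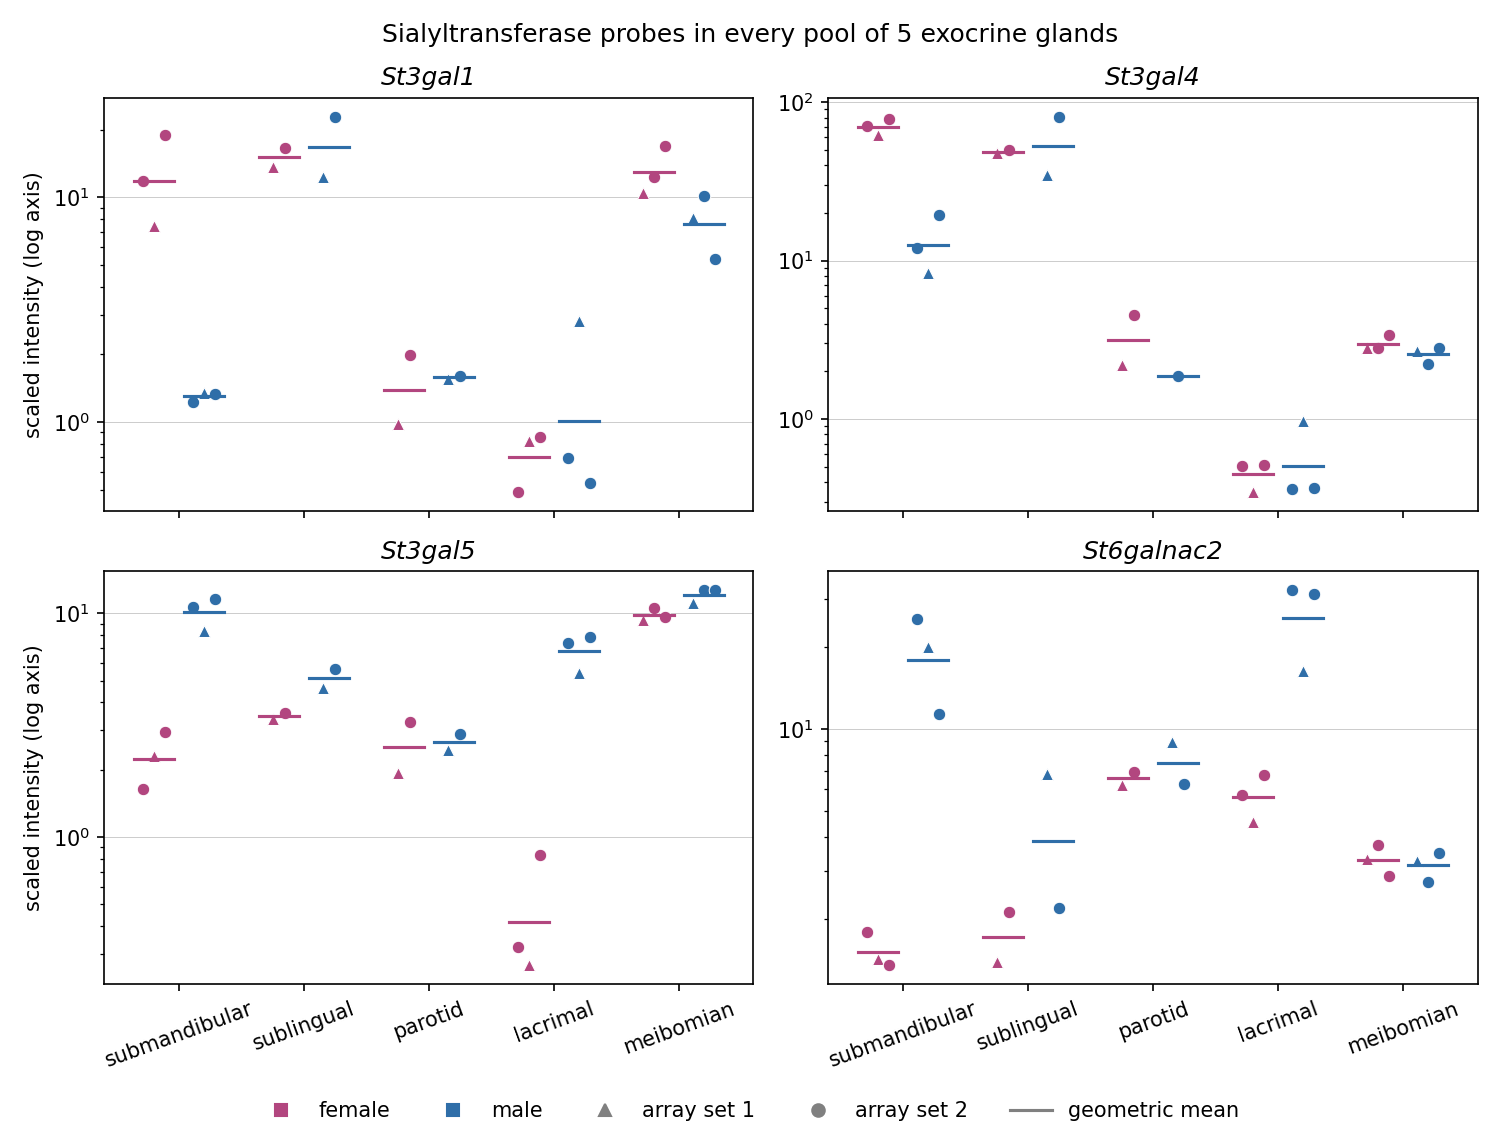
Scaled intensity (log axis) of the 4 sialyltransferase probes in every measured pool, by gland and sex, with a line at each group's geometric mean and triangles for array set 1. St3gal1 and St3gal4 sat higher in female than in male submandibular pools, St3gal5 and St6galnac2 sat higher in male submandibular and male lacrimal pools, and St3gal4 was lowest in the lacrimal gland.

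St3gal1 was high in the sublingual gland, the meibomian gland and the female submandibular gland, and low in the male submandibular, parotid and lacrimal glands. In the submandibular gland its intensity was 11.8, 7.48 and 18.9 in female pools A, B and C. The male pools read 1.23, 1.35 and 1.33. Every female pool lay above every male pool, and the geometric means of 11.8 and 1.30 differed 9.09-fold, a male minus female difference of -3.18 ± 0.48 (SE, n = 3 per sex) on the log2 scale. Within array set 1 this difference was -2.47 and within set 2 it was -3.54. Its SE comes from the fit, where all 10 groups share a spread per probe, so it is not the spread of these 6 pools alone. Without male lacrimal pool B it was 0.36.

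In the sublingual gland, where mucous cells prevail, St3gal1 read 13.7 and 16.6 in female pools and 12.3 and 22.8 in male pools. The sexes overlapped there, with a difference of 0.15 ± 0.59 (SE, n = 2 per sex). The meibomian gland, a holocrine gland of the eyelid that secretes lipid, gave 10.4, 16.9 and 12.3 in female pools and 8.10, 10.1 and 5.31 in male pools. All 3 male values were below all 3 female values, and the difference was -0.77 ± 0.48. The parotid gland gave 0.980 and 1.98 in females and 1.56 and 1.60 in males, which overlapped. The lacrimal gland had the lowest St3gal1 signal, 0.488, 0.824 and 0.862 in female pools and 0.692, 2.82 and 0.535 in male pools. The male value of 2.82 came from pool B. The difference between the sexes was 0.53 ± 0.48 with that pool and -0.21 without it.

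From the highest group mean, 16.7 in male sublingual, to the lowest, 0.702 in female lacrimal, St3gal1 spanned 23.8-fold. The order was male sublingual, female sublingual, female meibomian, female submandibular and male meibomian, then male parotid, female parotid, male submandibular, male lacrimal and female lacrimal. Of the 9 pairs of neighbours in this order 8 had overlapping pools. The exception was the step from male meibomian, at 5.31 or more, to male parotid, at 1.60 or less. Averaged over both sexes, the sublingual gland was 2.59 ± 0.32 above the mean of the other glands on the log2 scale, the meibomian gland 1.73 ± 0.27 above (0.43 ± 0.50 with the missing-spot lot as a block), and the parotid and lacrimal glands differed from it by -1.69 ± 0.32 and -2.70 ± 0.27. The submandibular average of 0.07 ± 0.27 stands between unlike sexes and describes neither.

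St3gal4 had the widest range of the 4 genes, 157-fold between female submandibular and female lacrimal means. Its intensity in female submandibular pools was 70.3, 62.1 and 78.9. Male submandibular pools read 12.0, 8.34 and 19.4. No male pool reached a female pool, the means of 70.1 and 12.5 differed 5.61-fold, and the log2 difference was -2.49 ± 0.39 (SE, n = 3 per sex). In the sublingual gland St3gal4 was 47.5 and 49.6 in females and 34.8 and 80.9 in males, so the sexes overlapped, and all 4 pools lay above the male submandibular pools. The difference between the sexes there was 0.13 ± 0.48.

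St3gal4 was lower outside these glands. The meibomian pools read 2.80, 3.38 and 2.82 in females and 2.71, 2.21 and 2.81 in males, with a difference of -0.22 ± 0.39. Parotid pools read 2.18 and 4.56 in females and 1.87 in male pool B. Male parotid pool A carries the table's missing code and was left out of the fit, so the parotid difference of -0.76 ± 0.59 rests on a lone male pool. The lacrimal pools read 0.506, 0.346 and 0.511 in females and 0.362, 0.966 and 0.369 in males. All 6 lacrimal values lay below all 19 measured values of the other glands, and except for male pool B they stood between the 10.5th and 37.2th percentile of their arrays, close to the dim end. As with St3gal1, the highest lacrimal value was that of male pool B, and the sex difference of 0.18 ± 0.39 became -0.29 without it.

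The St3gal4 groups fell into 5 steps whose pools did not overlap: female submandibular with both sublingual groups, male submandibular, female parotid with both meibomian groups, male parotid, and both lacrimal groups. The male parotid step is a lone measured pool without a spread, so it does not establish a separate level. Of 9 neighbouring pairs, 5 overlapped. The sublingual gland was 4.02 ± 0.26 and the submandibular gland 3.05 ± 0.23 above the mean of the other glands (log2), while the lacrimal gland differed from it by -4.40 ± 0.23, the parotid gland by -1.46 ± 0.31 and the meibomian gland by -1.22 ± 0.23.

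St3gal5 was higher in males than in females in the submandibular and lacrimal glands and evenly high in the meibomian gland. Its submandibular intensity was 1.64, 2.31 and 2.95 in female pools. In male pools it was 10.7, 8.35 and 11.6. The pools did not overlap, the means of 2.24 and 10.1 differed 4.53-fold, and the log2 difference was 2.18 ± 0.33 (SE, n = 3 per sex). The lacrimal gland showed a wider gap: female pools read 0.323, 0.267 and 0.828 and male pools 7.35, 5.41 and 7.84. The means of 0.415 and 6.78 differed 16.3-fold, with a log2 difference of 4.03 ± 0.33. Female lacrimal pools A and B stood at the 25.1th and 22.9th percentile of their arrays, so the female level there is near the dim end and the size of the fold is uncertain: on a log2(value + 0.5) scale the difference was 2.95.

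In the meibomian gland St3gal5 read 9.35, 9.68 and 10.6 in female pools and 11.1, 12.7 and 12.7 in male pools. The male pools were all higher, by 0.30 ± 0.33 on the log2 scale. The sublingual gland gave 3.38 and 3.60 in females and 4.63 and 5.67 in males, again without overlap, with a difference of 0.56 ± 0.40 (SE, n = 2 per sex). In the parotid gland the female values of 1.94 and 3.27 enclosed the male values of 2.45 and 2.89. The group means ran over 29.3-fold from male meibomian through male submandibular, female meibomian, male lacrimal, male sublingual, female sublingual, male parotid, female parotid and female submandibular to female lacrimal. Among 9 neighbouring pairs 5 overlapped, and female lacrimal lay apart below female submandibular. Relative to the mean of the other glands the meibomian gland was higher by 1.84 ± 0.19, and the parotid gland differed by -0.76 ± 0.22. The lacrimal average of -1.54 ± 0.19 joins unlike sexes: the male mean of 6.78 lay above the 4.89 of the other glands and the female mean of 0.415 below it.

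St6galnac2 was also higher in male submandibular and male lacrimal glands. Female submandibular pools read 1.79, 1.42 and 1.35. Male submandibular pools read 25.4, 20.1 and 11.3. The pools were well separated, the means of 1.51 and 17.9 differed 11.9-fold, and the log2 difference was 3.57 ± 0.37 (SE, n = 3 per sex). In the lacrimal gland the values were 5.70, 4.55 and 6.73 in females and 32.4, 16.3 and 31.4 in males. These did not overlap, and the means of 5.59 and 25.5 differed 4.57-fold, or by 2.19 ± 0.37.

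The sublingual pools of St6galnac2 read 1.39 and 2.11 in females and 6.83 and 2.18 in males. The difference of 1.17 ± 0.45 (SE, n = 2 per sex) rested on male pool A: it was 2.30 between the A pools, of array set 1, and 0.05 between the B pools, of set 2. Parotid pools read 6.21 and 6.96 in females and 8.91 and 6.24 in males. Meibomian pools read 3.30, 2.87 and 3.74 in females and 3.27, 2.73 and 3.48 in males. In both glands the sexes overlapped, with differences of 0.18 ± 0.45 and -0.06 ± 0.37. The group means spanned 16.9-fold, with male lacrimal and male submandibular at the top, followed without overlap by male parotid, female parotid, female lacrimal, male sublingual, female meibomian and male meibomian, and again without overlap by female sublingual and female submandibular. The lacrimal gland was 1.52 ± 0.21 above the mean of the other glands and the parotid gland 0.56 ± 0.24 above, while the meibomian and sublingual glands differed by -0.85 ± 0.21 (-0.15 ± 0.43 with the missing-spot lot as a block) and -1.25 ± 0.24. Within array set 1 the lacrimal value was 0.95. The lacrimal average joins unlike sexes: the female mean of 5.59 lay below the parotid means of 6.57 in females and 7.46 in males.

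**Figure D2:**
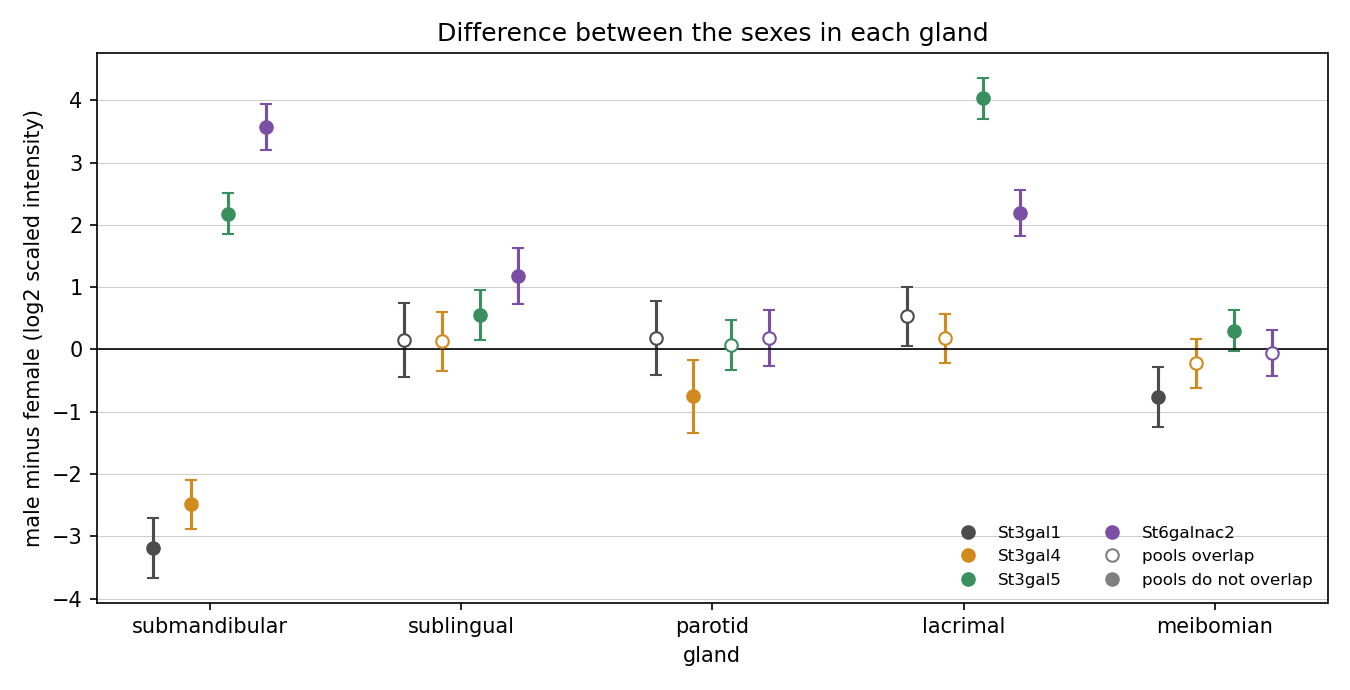
Male minus female difference in log2 scaled intensity of the 4 genes in each gland, with bars of 1 standard error of the fit and filled points where the pools of the sexes did not overlap. In the submandibular gland the differences of St3gal1 and St3gal4 were -3.18 and -2.49 and those of St3gal5 and St6galnac2 were 2.18 and 3.57, and in the lacrimal gland St3gal5 and St6galnac2 differed by 4.03 and 2.19.

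Set side by side, the pools of the sexes did not overlap for 4 of 4 genes in the submandibular gland, where this held for 18.9% of all probes. They did not overlap for 2 of 4 in the sublingual gland (26.1% of probes), 1 of 4 in the parotid gland (21.5%, with a lone male pool for St3gal4), 2 of 4 in the lacrimal gland (12.9%) and 2 of 4 in the meibomian gland (6.29%). The genes were chosen with these contrasts known, so nothing is read from the counts. The direction of the submandibular differences was the same in all 3 pool letters and in 38 of 38 alternative settings for each of the 4 genes. Of the lacrimal differences, those of St3gal5 and St6galnac2 also held their sign in 38 of 38. Leaving out a pool of another gland cannot change these differences, and pools that do not overlap leave little room for a change of sign. These counts of settings are therefore no added support.

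Markers of other cells moved with sex in the submandibular gland, where 1.94% of all probes were called higher in males and 0.671% lower. The myoepithelial and smooth muscle list summed to 23.1 to 36.2 in female and 66.5 to 123 in male pools, with 4 of 6 tested genes higher in males. The skeletal muscle list summed to 2.65 to 4.07 in females and 17.7 to 21.8 in males, with 6 of 9 higher and 3 of its 8 summed genes dim in females. The sublingual mucous list, of Agr2, Spdef and Creb3l1, summed to 33.8 to 46.0 in female and 15.1 to 20.2 in male pools, with 2 of 3 genes lower in males. The granular duct list, for the cells that are larger and more numerous in male rodents, summed to 373 to 487 in females and 468 to 530 in males, with 2 of 5 higher. Lower summed levels in male pools, without overlap, were also seen for the lacrimal list (554 to 703 in females, 425 to 502 in males, 2 of 8 lower), the meibomian list (59.1 to 65.5 and 25.9 to 36.0, 1 of 9 lower), B and plasma cells (37.1 to 47.7 and 16.7 to 30.6, 0 of 6 called) and T cells (4.89 to 5.91 and 3.24 to 3.45, 0 of 7 called). Of the 8 summed T cell genes, 5 were dim in male and 2 in female submandibular pools. The median log2 difference of the meibomian list was 0.37 there, beside -0.09 for all probes. Its lower sum in males therefore does not describe most of its genes. In the lacrimal gland, where 2.91% of all probes were called higher in males and 2.53% lower, the B and plasma cell list summed to 12.6 to 34.0 in females and 40.8 to 81.5 in males (1 of 6 higher), the endothelium list to 5.26 to 5.67 and 3.15 to 4.58 (0 of 6 called), and the adipocyte list to 13.6 to 29.2 and 5.32 to 17.3 (2 of 5 lower). The part of these cells in the sialyltransferase differences was not tested.

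Across the 10 group means the 4 profiles resembled each other only in part. St3gal1 and St3gal4 had a Pearson correlation of 0.74. St6galnac2 ran against both, at -0.79 with St3gal1 and -0.59 with St3gal4. St3gal5 correlated at 0.37 with St3gal1, 0.19 with St3gal4 and 0.17 with St6galnac2. These are descriptions over 10 groups, in which both sexes share each gland and the 4 genes were read on the same arrays.

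**Figure D3:**
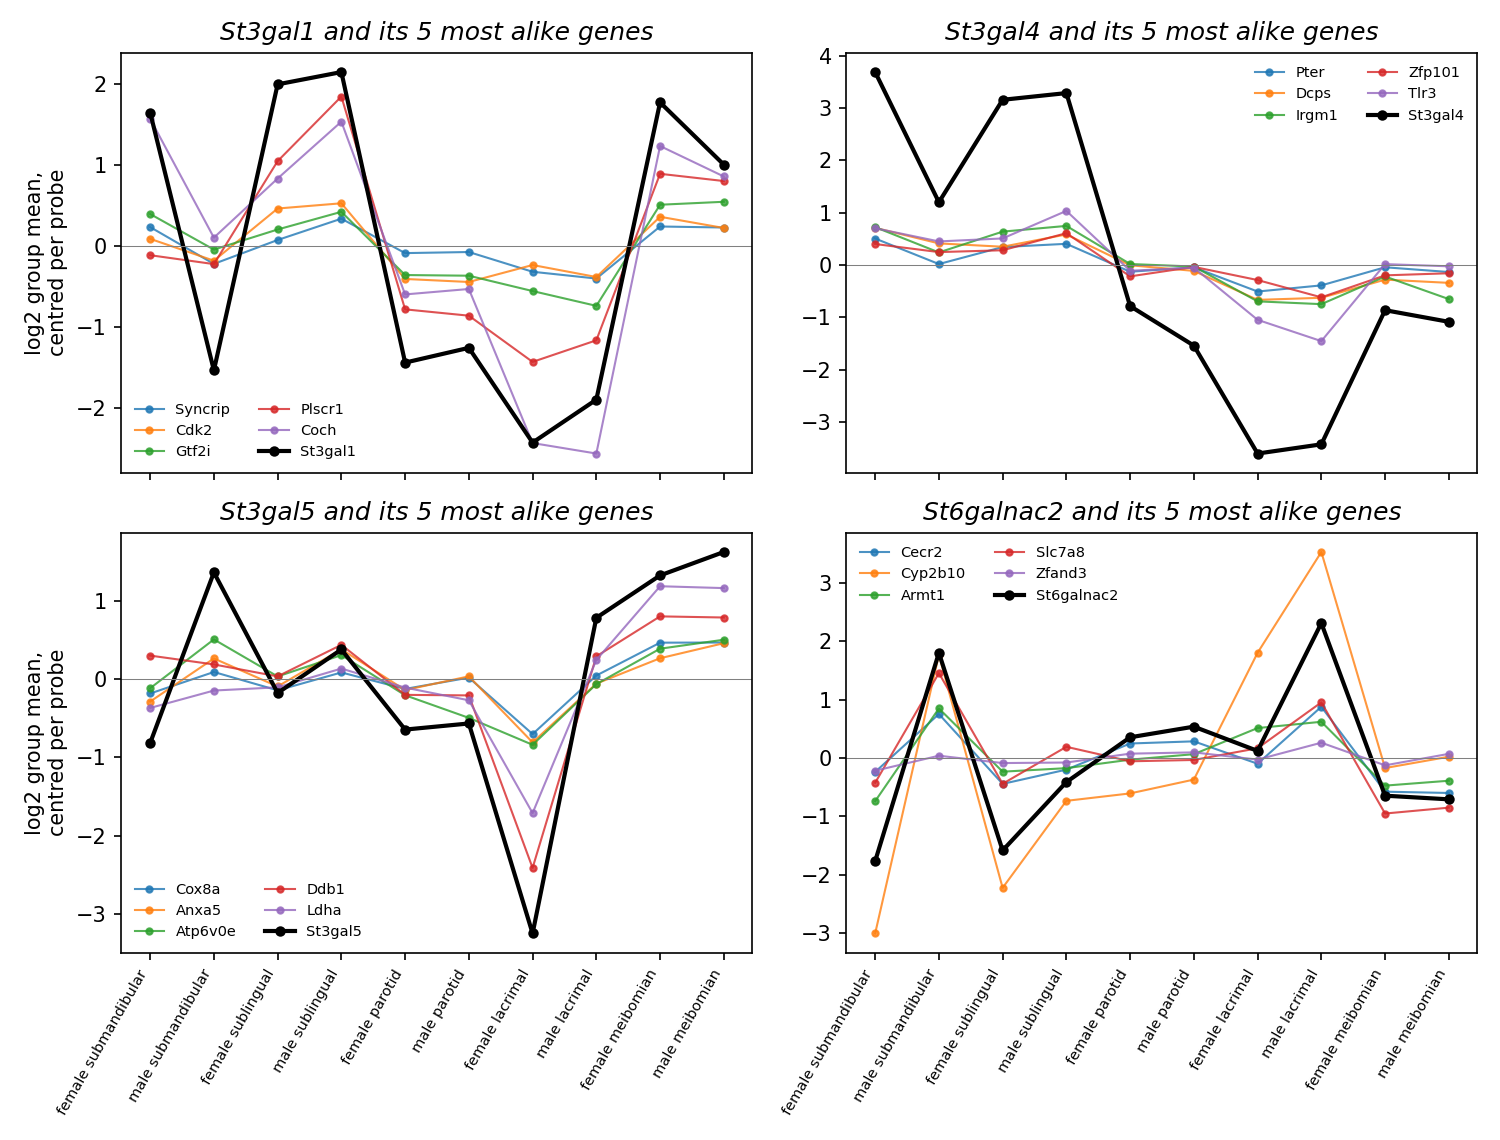
Log2 group means, centred per probe, of each sialyltransferase (black) and the 5 genes with the highest correlation over the 10 groups of gland and sex. The alike genes follow the order of the groups only in part. Ddb1, for 1, read 6.21 in female and 5.74 in male submandibular glands, against the direction of St3gal5. Most of them, such as Pter and Dcps beside St3gal4, span a narrower range than the sialyltransferase.

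The genes most alike were taken as the 5 of highest correlation over the 10 group means among 7239 compared probes. For St3gal1 they were Syncrip (0.92), Cdk2 (0.92), Gtf2i (0.90), Plscr1 (0.90) and Coch (0.89). Coch, which encodes the secreted protein cochlin, shared the female submandibular excess, at 3.27 in females and 1.18 in males. For St3gal4 they were Pter (0.97), Dcps (0.96), Irgm1 (0.95), Zfp101 (0.93) and Tlr3 (0.92). Dcps, which encodes the scavenger decapping enzyme of messenger RNA, ranged only from 3.58 in female lacrimal to 9.29 in female submandibular, and over single pools its correlation with St3gal4 was 0.93. For St3gal5 they were Cox8a (0.93), Anxa5 (0.92), Atp6v0e (0.92), Ddb1 (0.90) and Ldha (0.90). Ddb1, a subunit of a ubiquitin ligase that recognises DNA damage, shared the low female lacrimal level, at 0.948 beside 6.16 in male lacrimal. For St6galnac2 they were Cecr2 (0.90), Cyp2b10 (0.88), Armt1 (0.88), Slc7a8 (0.83) and Zfand3 (0.82). The cytochrome P450 gene Cyp2b10 read 0.206 in female and 5.66 in male submandibular glands, and 5.80 in female and 19.2 in male lacrimal glands. Over single pools all these correlations were lower than over group means. They ran from 0.49 for Zfand3 and 0.58 for Syncrip to 0.93 for Dcps, the highest.

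Of the 8 protein-coding genes next to the 4 members in the RefSeq order of build GRCm38.p6, 5 had a compared probe, a comparison added after the likeness was seen. Dcps is the neighbour of St3gal4, and its correlation ranked 2 of 7239. The other St3gal4 neighbour, Kirrel3, correlated at -0.08. St6galnac1 is the neighbour of St6galnac2, with a correlation of 0.71 that ranked 42. Ndrg1 beside St3gal1 and Polr1a beside St3gal5 correlated at -0.04 and -0.31.

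The family list held 16 other sialyltransferases, of which 14 had a probe and 8 passed the filter. St8sia1, St8sia2, St8sia3, St8sia5, St6galnac5 and St6galnac6, which include most of the polysialic and disialic acid enzymes, were too dim in these glands to be tested. Between the sexes, limma with Benjamini-Hochberg adjustment over all probes called 1 of the 8, St6galnac1 in the submandibular gland, where 2.61% of probes were called. St6galnac1, which sialylates the inner sugar of O-glycans like its neighbour St6galnac2, was not above the dim limit in female pools (mean 0.170) and read 0.600 in male pools, at least 1.78-fold higher. Its log2 difference was 1.82 ± 0.32 (SE, n = 3 per sex, limma adjusted p = 0.00168). A moderated F test of whether its sex difference varied between glands gave an adjusted p of 0.109, and 2.66% of probes were called by that test. None of the 8 was called in the sublingual, parotid, lacrimal or meibomian gland, where limma called 0.208%, 0.0244%, 5.43% and 0.0366% of probes. With the pool letter as a block, St6galnac3 was called in the lacrimal gland (0.68, adjusted p = 0.0188).

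**Figure D4:**
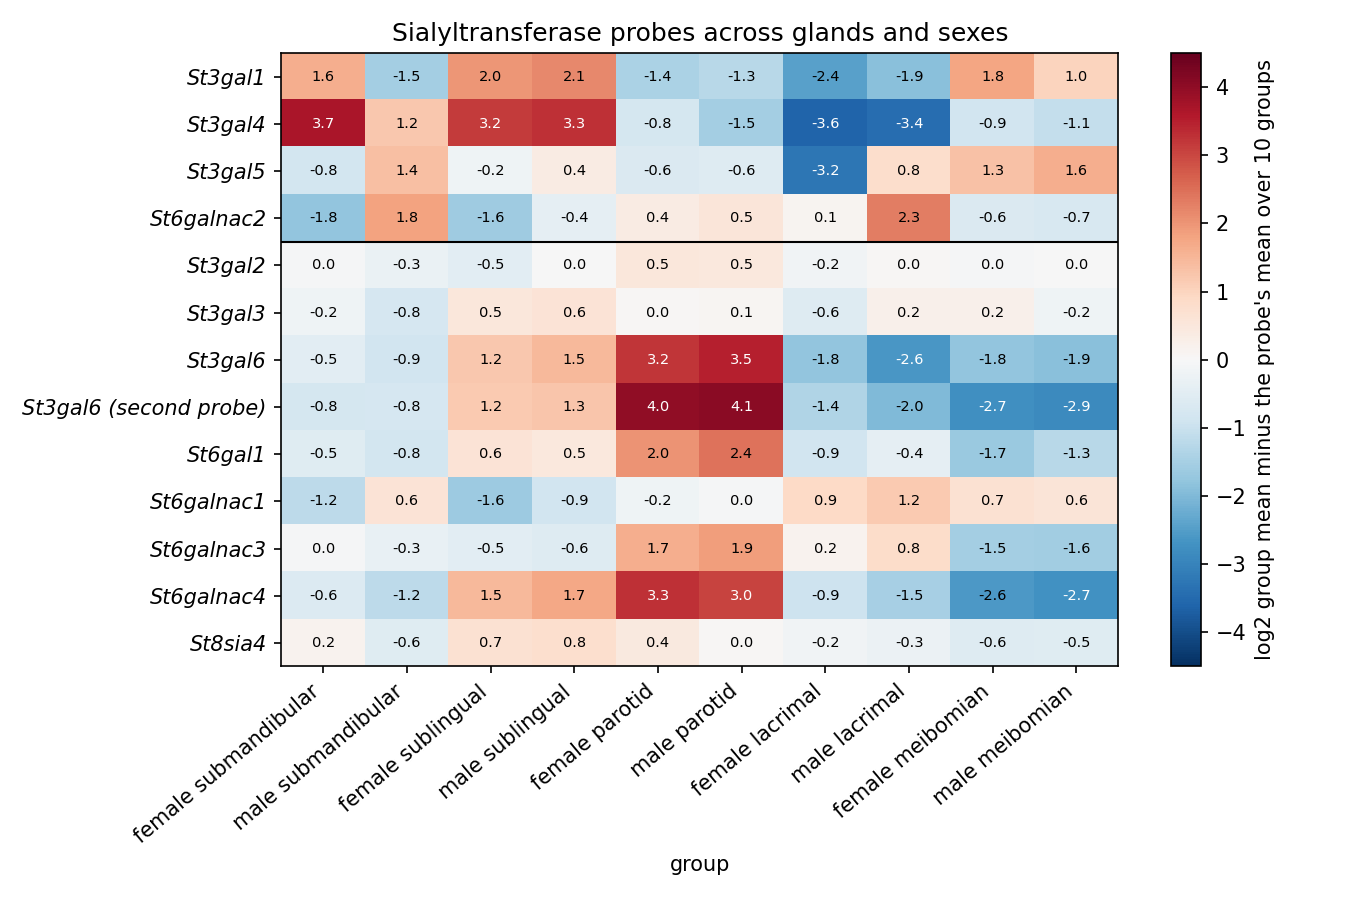
Log2 group mean minus the probe's mean over the 10 groups, for the 4 members (above the line) and the 9 other sialyltransferase probes that passed the filter. St3gal6, on both probes, St6gal1 and St6galnac4 are highest in the parotid groups, where St3gal1 and St3gal4 lie below their own means.

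The other family members differed mainly by gland. A gland was called when its adjusted p passed 0.05 and its log2 difference from the mean of the other 4 glands was at least 1. In the parotid gland 4 of 8 were higher and 0 lower, with a median log2 difference of 1.42 for the 8 genes and -0.13 for all probes, of which 17.1% were called, 8.95% higher and 8.13% lower. St3gal6, whose enzyme caps galactose much as that of St3gal4 does, read 72.2 in female and 88.5 in male parotid and was 4.20 ± 0.29 above the other glands (limma adjusted p = 4.29e-10). Its second probe gave 5.04 ± 0.23 (adjusted p = 1.84e-12). St6galnac4 was 3.94 ± 0.43 higher (5.05 against 0.328, adjusted p = 3.00e-07). St6gal1, the main enzyme that sialylates N-glycans in another linkage, was 2.79 ± 0.23 higher (2.32 against 0.336, adjusted p = 6.38e-08). St3gal1 and St3gal4 were low in this gland. Markers of other cells also differed by gland. All 9 tested skeletal muscle genes were higher in the parotid gland, and all 9 in the meibomian gland, where 17% of probes were. The list summed to 51.1 to 257 in parotid pools, 174 to 346 in meibomian pools and at most 21.8 elsewhere. Of 5 keratinocyte genes 4 were higher in the meibomian gland, and of 5 adipocyte genes 4 in the parotid gland. The part of these cells in the gland differences was not tested.

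The fourth parotid call, St6galnac3 (2.20 ± 0.72, adjusted p = 0.0212), followed the array sets. Outside the parotid gland its pools read 4.03 to 20.4 in set 1 and 16.7 to 174 in set 2. Its parotid call was lost without female parotid pool A (adjusted p = 0.0629), female pool B (0.0756) or male pool B (0.0995), and its lower meibomian level (-1.95 ± 0.62, adjusted p = 0.00890) was lost with the missing-spot lot as a block (0.486).

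In the meibomian gland 0 of 8 were higher and 4 lower, with a median of -1.26 beside -0.09 for all probes (37.9% called, 17% higher and 20.9% lower). St6galnac4 differed by -3.32 ± 0.37, St3gal6 by -2.29 ± 0.25 and St6gal1 by -1.82 ± 0.31, the last from 1 measured pool per sex. St6galnac4 and St6gal1 were not above the dim limit in any meibomian pool, so the size of these differences is a rough one. The sublingual gland had 2 higher and 1 lower (11.2% of probes called, 5.9% higher and 5.26% lower). St3gal6 was 1.68 ± 0.29 higher there, St6galnac4 read 1.72 against 0.429 (adjusted p = 0.00159), and St6galnac1, dim in every sublingual pool, differed by -1.57 ± 0.22. The lacrimal gland had 1 higher and 2 lower (20.2% called, 11.6% higher and 8.58% lower): St6galnac1 differed by 1.28 ± 0.18, St6galnac4 by -1.52 ± 0.37 and St3gal6 by -2.74 ± 0.25. In the submandibular gland St6galnac4 alone was called, lower by -1.11 ± 0.37 (adjusted p = 0.0260, 12.3% of probes called, 5.68% higher and 6.61% lower). That call was lost with the pool letter as a block (adjusted p = 0.127), without female submandibular pool A (0.0739), female pool C (0.0771) or male pool C (0.0963), and within array set 2 (0.0889). St3gal2, St3gal3 and St8sia4 were called in no gland, although St8sia4 was called higher in the sublingual gland without female pool A (1.15, adjusted p = 0.00168) or male pool A (1.05, adjusted p = 0.00549). In 1 of 36 alternative settings each, St3gal3 was also called in the submandibular, lacrimal and meibomian glands. The same held for St8sia4 in the meibomian gland.

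The supply of sialic acid was read from 13 tested genes for its synthesis, transport and removal. Gne, the rate-limiting enzyme of sialic acid synthesis, fell in males in 2 glands and was the only gene of the list called between the sexes. In the submandibular gland it read 33.1 in females and 15.1 in males (-1.14 ± 0.22, limma adjusted p = 0.00346, or 0.0635 after quantile normalization). In the lacrimal gland it read 15.2 and 6.43 (-1.25 ± 0.22, adjusted p = 0.000821, or 0.0543 with array weights and 0.198 from lacrimal arrays alone). The list's median sex differences in these glands were -0.16 and -0.01, beside -0.09 and -0.03 for all probes.

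By gland, 3 of 13 were higher and 0 lower in the sublingual gland, where 5.9% and 5.26% of all probes were. These were Gne, Neu1 and Slc35a1, the Golgi transporter of CMP-sialic acid, which read 16.9 against 4.46 (1.92 ± 0.28, adjusted p = 2.93e-05). In the meibomian gland 2 were higher and 5 lower, beside 17% and 20.9% of all probes. Gne read 1.77 there against 16.2 (-3.19 ± 0.12, adjusted p = 1.22e-14). Nans, the synthase that follows it, differed by -2.39 ± 0.18, the lysosomal sialic acid exporter Slc17a5 by -3.04 ± 0.19 and the lysosomal sialidase Neu1 by -2.33 ± 0.22. In the parotid gland 2 were higher, among them Renbp (1.66 ± 0.28, adjusted p = 7.52e-05), beside 8.95% of all probes. The lacrimal gland had 0 higher and 2 lower, where 8.58% of all probes were lower, and the submandibular gland had 1 higher and 2 lower, beside 5.68% and 6.61%.

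Genes that build the acceptors of these enzymes were read in the lacrimal gland, where 5.43% of all probes were called between the sexes, and in the submandibular gland, where 2.61% were. B4galt6, a lactosylceramide synthase and so the source of the acceptor of St3gal5, was not above the dim limit in female lacrimal pools (mean 0.321) and read 4.16 in males, at least 10.0-fold higher (3.70 ± 0.29, limma adjusted p = 4.41e-08). It was 1 of 9 tested genes of ganglioside synthesis and breakdown called there, and 0 of 9 were called in the submandibular gland. Among 10 tested genes of O-glycan synthesis, 2 rose in male lacrimal glands. Chst2, a sulfotransferase of N-acetylglucosamine, read 21.2 in females and 326 in males (3.94 ± 0.30, adjusted p = 2.16e-08). C1galt1, which makes the galactose acceptor of St3gal1, rose by 0.89 ± 0.26 (adjusted p = 0.0490). The C1galt1 call lay at the threshold and was lost in 28 of 37 alternative settings.

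Man2a1, a Golgi mannosidase of N-glycan trimming, rose 1.66 ± 0.34 in male lacrimal glands (152 against 48.2, adjusted p = 0.00430), the only call among 6 tested N-glycan genes. Fut8, which adds the core fucose of N-glycans, rose 1.69 ± 0.22 (adjusted p = 3.25e-05), the only call among 5 fucosyltransferases. From lacrimal arrays alone their adjusted p was 0.132 and 0.0733. In the submandibular gland Gcnt1, which branches O-glycans, fell by 1.33 in males on the log2 scale (0.726 in females, 0.289 in males, SE 0.29, adjusted p = 0.0122). Without female submandibular pool B its adjusted p was 0.0995, and without male pool B it was 0.0898. Muc13, a membrane mucin, rose 2.13 ± 0.45 in the male submandibular gland (3.44 in females, 15.1 in males, adjusted p = 0.00832), the only call among 6 tested mucins, and within array set 2 its adjusted p was 0.0863. None of 5 tested sialic acid binding lectins was called between the sexes in any gland.

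Between glands, Gcnt1 was 2.75 ± 0.20 higher in the parotid gland (adjusted p = 6.63e-10). Chst2 was 6.63 ± 0.17 higher in the lacrimal gland (adjusted p = 5.51e-17), where B4galt3 and B4galt1, which add galactose, were 1.48 ± 0.14 and 1.21 ± 0.18 higher. The mucins Muc5ac and Muc1 were 5.49 ± 0.21 and 3.84 ± 0.16 higher in the meibomian gland, where Galnt3, which starts O-glycans, was lower by -2.15 ± 0.14 and the ganglioside-degrading Hexa by -1.11 ± 0.14. In the sublingual gland Gm2a, the activator of ganglioside breakdown, was 1.07 ± 0.21 higher and Muc5ac differed by -2.56 ± 0.25.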

How the data were processed

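RNA of 26 gland pools was measured on one-colour arrays. The authors deposited 1 intensity per probe and array, with array medians of 0.928 to 0.955, while array design, scaling and software are not given in the sources used here. For the fit, the value -1 (2241 cells, 0.821%) was treated as missing. Intensities below 0.0234 (percentile 1 of the positive values) were set to it before log2 was taken. A probe was kept when it reached the 30th percentile of every array in at least 1 group (8191 of 10500 probes), and a group below it on every array is called dim. Names came from the platform's probe table (8983 probes with 1 symbol, 1 with several, 1516 with none), and 8975 were matched by Entrez identifier.

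Group means of the 10 groups were fitted with limma 3.58.1 in R 4.3.3 over all arrays, with empirical Bayes variances and Benjamini-Hochberg adjustment within each comparison. Every standard error of a difference rests on a spread per probe shared by all 10 groups, and is the same for glands with equal numbers of measured pools. Differences of the 4 members carry no p. For other genes adjusted p under 0.05 was called, with a log2 difference of at least 1 between glands. The number of arrays limits the precision. In simulated data with sex differences of at least 4-fold, 74.5% of changed probes were recovered. The simulation had independent noise and no gland differences, array sets, shared pool letters or missing spots. Recovery of smaller differences was not simulated.

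The members and gene lists were chosen with earlier results of these data known. Named genes are the 4 members, every kept sialyltransferase, up to 4 called genes per list and comparison with non-overlapping pools, and the 5 most alike probes per member; Neu1 in the sublingual gland and the neighbouring genes were named after their values were seen. Male and female pools of the same letter deviated together in the 9 of 9 pairs of the 3-pool glands (correlations 0.441 to 0.816 over 7555 probes), so a fit with the letter as a block was an alternative, which called 597 probes in place of 214 between the sexes of the submandibular gland, 1108 in place of 445 in the lacrimal gland and 36 in place of 17 in the sublingual gland. Other alternatives were the offset, filter, normalization, weights, missing code and leaving out each pool. Blocks for the array set and for 4 lots of arrays with shared missing spots were added after the data were seen.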

Additional observations from a re-analysis of the deposited data

Results flagged for a closer look

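The sex difference of St6galnac2 was 3.57 on the log2 scale in the submandibular gland, 2.19 in the lacrimal gland and 1.17 in the sublingual gland, with every male pool above the female pool of its letter. In the meibomian gland it was -0.06 ± 0.37 (SE), with each of the 3 male pools below the female pool of its letter by 0.01 to 0.10. This SE comes from a spread shared by all 10 groups and ignores the letters, so it does not measure the spread of these paired differences. The meibomian pools of the sexes overlapped, and the sign held in 36 of 38 alternatives, with values from -0.16 to 0.04, so no meibomian difference was resolved. The contrast between these glands drew attention because all paired pools differed 1 way in the first 3 glands and the other way in the meibomian gland, and it was not tested. The sublingual value rested on the A pools.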

How the results depend on the processing

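No result changed direction among those called. Within array set 1 alone the following values moved by more than the spread between pools: St3gal1 male minus female was -2.47 in the submandibular and 1.77 in the lacrimal gland and its lacrimal level -1.61, St3gal4 male minus female was 1.48 in the lacrimal and -0.047 in the meibomian gland, St6galnac2 male minus female was 2.30 in the sublingual and 0.52 in the parotid gland, and its lacrimal level was 0.95. Within array set 2 alone St3gal4 male minus female was -0.48 in the lacrimal gland, and St6galnac2 was 0.047 in the sublingual and -0.16 in the parotid gland. With the missing-spot lot as a block the meibomian level relative to the other glands was 0.43 ± 0.50 (SE) for St3gal1, 2.38 ± 0.30 for St3gal5 and -0.15 ± 0.43 for St6galnac2. Lot and meibomian gland are nearly confounded, so these values are rough. With the missing code set to the floor, St3gal4 in the parotid gland was -3.92 between the sexes and -3.04 against the other glands. On the log2(value + 0.5) scale the lacrimal level was -3.48 for St3gal4 and -1.07 for St3gal5, and the lacrimal sex difference of St3gal5 was 2.95. The cause was not tested.

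The number of other sialyltransferases called between the sexes of the lacrimal gland was 1 with the pool letter as a replicate block, in place of 0, and 0 to 1 when each pool was left out. For the submandibular gland against the others it was 0 with the replicate block, 0 on the log2(value + 0.5) scale and 0 within array set 2, in place of 1, and 0 to 2 when each pool was left out. On the log2(value + 0.5) scale it was 1 in place of 3 in the sublingual and 1 in place of 3 in the lacrimal gland, where quantile normalization gave 5. Leaving out a pool also added calls: St3gal3 between the sexes of the lacrimal gland without female lacrimal pool A (1.58, adjusted p = 0.0390), St6gal1 in the lacrimal gland without male lacrimal pool C (-1.02) and St3gal6 in the submandibular gland without male submandibular pool A (-1.01). Among tested sialyltransferases, list and marker genes the block changed 1 further call, that of the plasma cell gene Jchain in the lacrimal gland, which was lost (adjusted p = 0.0654). Over all alternatives for these genes, 5982 values stayed on their side of the threshold, whether called or not, 175 calls were lost and 12 were gained. Each member has 1 probe, so no other probe could be tried. Levels of St3gal4 and female St3gal5 in the lacrimal gland lie near the dim end, which limits how well their folds are known.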
